A study of Mus musculus with 24 samples.

Results

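The 10 genes described here encode auxiliary subunits of voltage-gated calcium channels: the α2δ subunits Cacna2d1, Cacna2d2 and Cacna2d3, the β subunits Cacnb1, Cacnb2, Cacnb3 and Cacnb4, and the γ subunits Cacng2, Cacng5 and Cacng7. They were chosen by name, with earlier results of these data known. Matching the 47643 gene identifiers of the count files to gene symbols gave all 10. RNA was sequenced from GFP-positive cells of L4 dorsal root ganglia (DRG), sorted by flow cytometry in lots of 100 cells, with 3 lots for every mouse and 4 mice of each genotype, control and Nav-Tsc2. Control mice were Nav1.8-Cre, Tsc2 flox/+ and Rosa26-ZsGreen, and Nav-Tsc2 mice were Nav1.8-Cre, Tsc2 flox/null and Rosa26-ZsGreen. All mice were 8 to 9 weeks old on a mixed C57BL/6 and AJ background, and their sciatic nerve on the other side had been crushed 3 d earlier. In both genotypes the mice numbered 1 and 2 were male and those numbered 3 and 4 female. The study asked how loss of Tsc2, a brake on the growth kinase complex mTORC1, alters nociceptors. Cre was driven from the gene of the sodium channel Nav1.8, which most pain-sensing neurons and a minority of large, myelinated neurons express. In control mice Cre left sorted neurons with 1 functional copy of Tsc2, whereas Nav-Tsc2 mice carried the null allele in every cell of the body, so neither group had the full gene in the sorted neurons.

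A high-voltage-activated calcium channel is built around a pore-forming subunit that opens on depolarization. A β subunit binds its cytoplasmic side, helps it reach the membrane and shapes its gating. An α2δ subunit, anchored outside the cell, raises the number of channels at the surface and at presynaptic release sites. In sensory neurons these channels admit the calcium that releases transmitter in the spinal cord. Cacna2d1 encodes the main target of gabapentin and pregabalin, drugs for neuropathic pain, and its RNA is known to rise in DRG neurons after nerve injury. Most γ subunits work less with calcium channels than with AMPA-type glutamate receptors, whose trafficking and gating they control, and are then called TARPs.

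Of the 10 genes, Cacna2d1 was higher and Cacnb4 lower in Nav-Tsc2 mice, and 8 passed the test in neither direction. The promoter windows of these 2 genes are printed here because the results turn on them. They are the 250 bases before a RefSeq start on GRCm38.p6, read 5′ to 3′ on the strand of the gene, for the most upstream start whose window holds no annotated exon. The window of Cacna2d1 is chr5:15934441-15934690 on the plus strand, before the gene's only RefSeq start in the table used. The window of Cacnb4 is chr2:52558612-52558861 on the minus strand and belongs to the most downstream of 3 starts, since annotated exons fell in the windows of the other starts. Capitals mark GC boxes, GGGCGG on either strand.
Cacna2d1: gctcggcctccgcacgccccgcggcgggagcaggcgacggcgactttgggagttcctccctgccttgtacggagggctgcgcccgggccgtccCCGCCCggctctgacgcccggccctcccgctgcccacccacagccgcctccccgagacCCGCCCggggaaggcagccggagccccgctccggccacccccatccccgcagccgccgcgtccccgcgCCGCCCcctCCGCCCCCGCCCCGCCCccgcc
Cacnb4: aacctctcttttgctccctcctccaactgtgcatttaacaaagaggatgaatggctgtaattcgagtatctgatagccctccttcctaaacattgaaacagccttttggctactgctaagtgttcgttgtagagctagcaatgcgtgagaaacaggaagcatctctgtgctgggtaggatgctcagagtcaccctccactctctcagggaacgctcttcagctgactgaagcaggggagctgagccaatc
The Cacna2d1 window was 82.4% G and C and held 36 CpG and 6 overlapping or separate GC boxes. The Cacnb4 window was 48.8% G and C, with 4 CpG and 0 GC boxes, against a median of 52.0% G and C over 27025 promoters. A GC box was present in the windows of 6 of the 10 genes and in 32.4% of all promoters. For Cacnb2, Cacna2d2 and Cacng2 no start had a window free of annotated exons, so that of the most upstream start was taken. The same rule was applied to all promoters. Of the other motifs searched on both strands, none overlapping another, the E-box CACGTG was in 0 of the 10 and in 6.01% of all promoters. The ATF/CRE site TGACGTCA was in 0 of the 10 and in 1.58% of all. The AP-1 site TGANTCA was in 1, Cacng5, and in 6.88% of all. These counts describe letters in 1 window for each gene and say nothing of which proteins bind there.

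Mice had between 47959617 and 61290435 counts on genes, and libraries between 8339220 and 34228180. Values are given as CPM, gene counts relative to the total of the mouse, scaled by the TMM method. Tsc2 had 13.4, 24.7, 21.5 and 24.1 CPM in control replicates 1 to 4 and 8.70, 8.51, 7.30 and 11.0 CPM in Nav-Tsc2 replicates 1 to 4, a log2 difference of -1.24 (SE 0.22, adjusted p = 0.00400), with no overlap. Scn10a, the gene of Nav1.8 by which the cells were labelled, ran from 510 to 791 CPM in control and from 577 to 658 CPM in Nav-Tsc2 mice. Of 24 libraries, library A of control replicate 3 had a higher median correlation across genes with libraries of the other genotype (0.930) than with its own (0.918). Results that rest on it are given with and without it.

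Each of the 10 genes passed the filter on low counts and had a count in all 24 libraries. To compare genes with each other, CPM were divided by the length of the gene's merged exons. In control mice the order was Cacna2d1 at 28.1 ± 7.67 CPM per kb (SD, n = 4), Cacnb3 at 19.5 ± 3.24 and Cacnb4 at 14.7 ± 4.07, and each of these overlapped its neighbour in the range of the 4 mice. A gap of 4.93-fold, without overlap, separated Cacnb4 from Cacnb1 at 2.99 ± 0.40 CPM per kb. Cacnb1, Cacna2d2, Cacng5, Cacna2d3 and Cacng2 followed in that order between 2.99 and 1.69 CPM per kb, each overlapping the next. Cacnb2, at 0.33 ± 0.17, and Cacng7, at 0.19 ± 0.05 CPM per kb, came last and overlapped. In Nav-Tsc2 mice the first 3 genes kept their order but no longer overlapped, at 43.7 ± 3.08, 18.5 ± 1.97 and 7.54 ± 1.02 CPM per kb. Cacng7, at 0.30 ± 0.04, stood above Cacnb2, at 0.15 ± 0.03 CPM per kb, without overlap.

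Nav-Tsc2 mice were set against control mice by the quasi-likelihood test of edgeR over 17178 genes. A gene was called where its adjusted p was below 0.05 and its log2 difference (Nav-Tsc2 minus control) was beyond 0.5 in either direction. Of the 10 genes, 1 was called lower, against 8.00% of all genes tested, and 1 higher, against 9.12%. In 4 of the 10 the mice of the genotypes did not overlap, against 26.9% of all genes tested. The median log2 difference of the 10 was -0.08, and that of all genes 0.01. The numbers called were near those shares, and nothing is read from them about the 10 genes as a set.

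**Figure D1:**
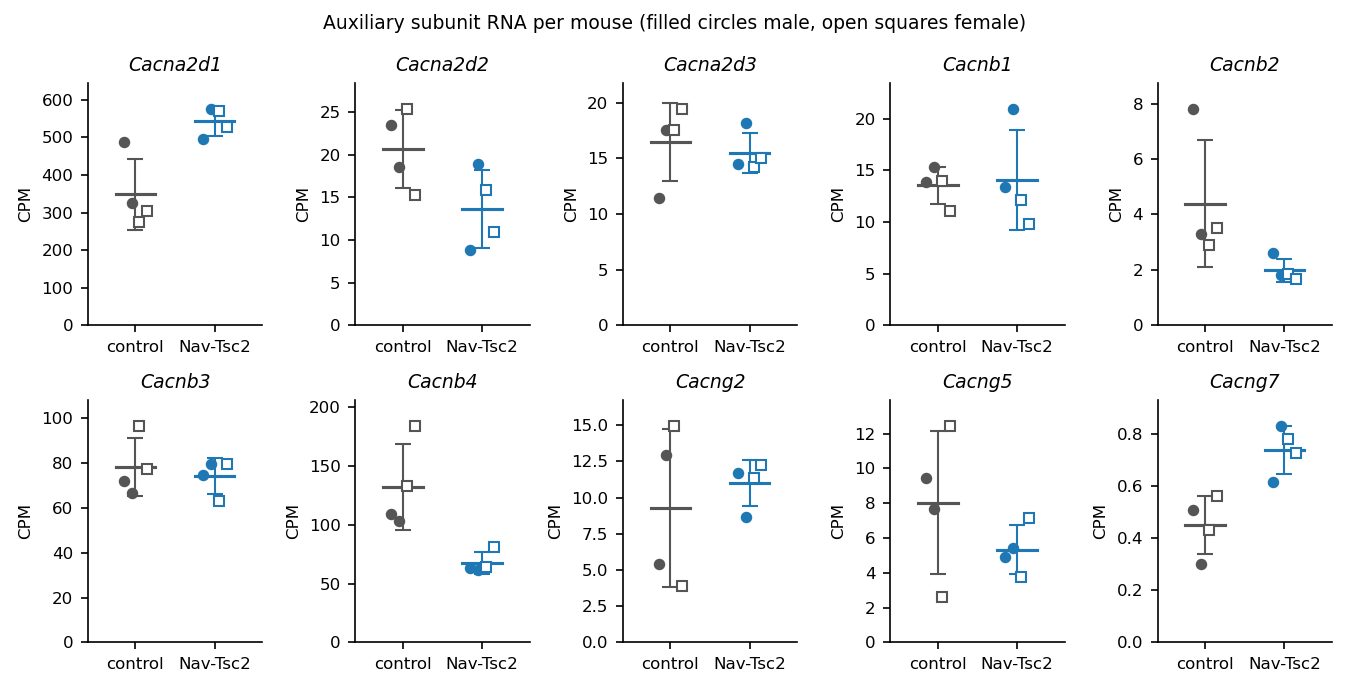
CPM of the 10 auxiliary subunit genes in each mouse, with the mean (horizontal line) and SD (bar) of 4 control and 4 Nav-Tsc2 mice on linear axes that start at 0, with males as filled circles and females as open squares. The Nav-Tsc2 mice lie above all control mice for Cacna2d1, 495 to 576 against 276 to 488 CPM, and below them for Cacnb4, 61.2 to 81.1 against 103 to 184 CPM.

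Among the α2δ subunits, Cacna2d1 lies on chromosome 5 of GRCm38 from 15934691 to 16374511, and its merged exons overlap no other gene. It had 488, 326, 276 and 304 CPM in control replicates 1 to 4. It had 495, 576, 571 and 529 CPM in Nav-Tsc2 replicates 1 to 4. Every Nav-Tsc2 mouse was above every control mouse, although control replicate 1 came within a few CPM of Nav-Tsc2 replicate 1. The mean rose from 349 ± 95.2 to 543 ± 38.2 CPM (SD, n = 4 each), 1.56-fold with a 95% interval of 1.21 to 2.01, or 0.64 on the log2 scale (SE 0.16, adjusted p = 0.0228). In bulk samples a change in RNA per cell and a change in the share of cells that express the gene cannot be told apart.

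The libraries of Cacna2d1 followed the mice, with 1 exception. All 12 Nav-Tsc2 libraries, from 425 to 649 CPM, were above the control median of 319 CPM, and 11 of 12 control libraries were below the lowest Nav-Tsc2 library. The exception was library C of control replicate 1, at 651 CPM, the highest of all 24. Without library A of control replicate 3 the log2 difference was 0.63 (adjusted p = 0.0221). The call held in 11 of 16 alternatives. It was lost in 5 that dropped a mouse, namely control 2, control 4, Nav-Tsc2 2, Nav-Tsc2 3 and Nav-Tsc2 4, with adjusted p of 0.0544 to 0.0690 and log2 differences of 0.58 to 0.65. Over all 16 the adjusted p ran from 0.000108 to 0.0690.

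Cacna2d2, the other α2δ gene whose product binds gabapentin and the gene mutated in ducky mice, had 23.4, 18.5, 25.3 and 15.3 CPM in control and 8.76, 18.9, 15.9 and 10.9 CPM in Nav-Tsc2 replicates 1 to 4. The genotypes overlapped in the middle of these ranges. The log2 difference was -0.60 (95% interval -1.19 to -0.01, adjusted p = 0.140). Library A of control replicate 3 had the highest value of the 24 libraries, 35.2 CPM. With that library left out, the log2 difference was -0.56 (adjusted p = 0.150). When the 24 libraries were fitted separately, with mouse as a random effect, it was -0.64 (adjusted p = 0.0316) and passed the test, the only one of 16 alternatives in which it did, over which the adjusted p ran from 0.0316 to 0.299. Cacna2d3, linked to heat nociception in flies and mice, had 11.4 to 19.4 CPM in control and 14.3 to 18.1 CPM in Nav-Tsc2 mice. Its log2 difference was -0.09, with an interval of -0.50 to 0.32.

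Together the 3 α2δ genes amounted to 43.6, 30.6, 27.4 and 28.7 CPM per kb in control and 42.6, 50.8, 49.6 and 45.7 in Nav-Tsc2 replicates 1 to 4. Control replicate 1 thus lay within the Nav-Tsc2 range, and the other control mice below it. Cacna2d1 made up 81.0 to 90.2% of the sum in control and 91.2 to 93.5% in Nav-Tsc2 mice. The share of Cacna2d2 was 6.71 to 11.6% in control and 2.59 to 4.68% in Nav-Tsc2 mice. Neither share overlapped between the genotypes, and both follow from the same counts as the differences above.

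**Figure D2:**
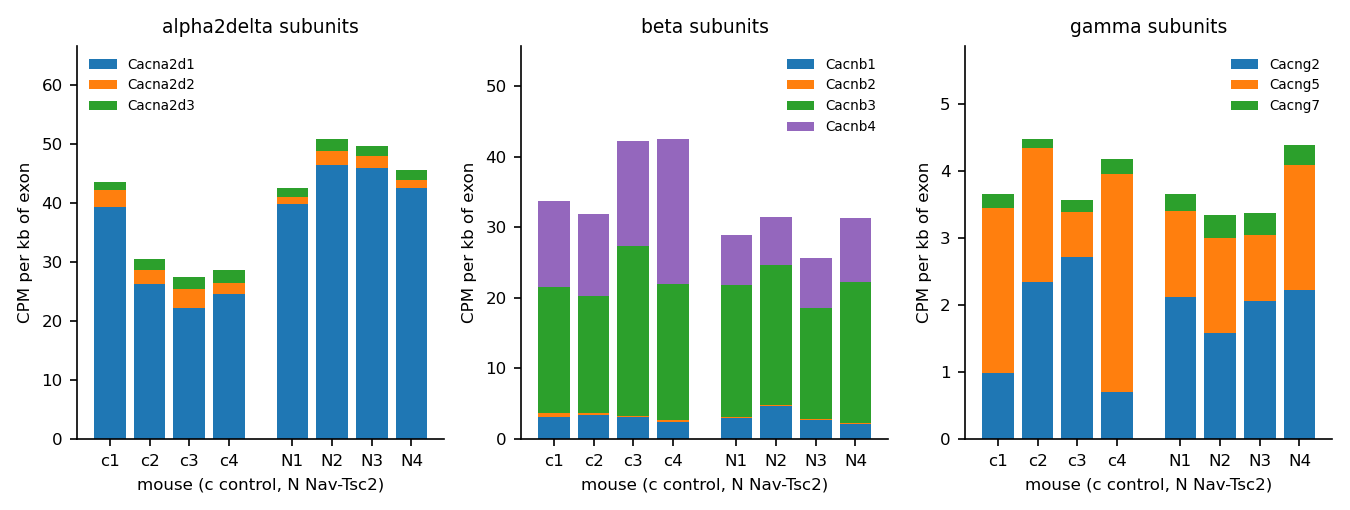
Level of each auxiliary subunit (CPM per kb of exon) stacked within the α2δ, β and γ genes of the 10 (Cacng3 and Cacng4 are not drawn) for control mice c1 to c4 and Nav-Tsc2 mice N1 to N4. Cacna2d1 fills 81.0 to 93.5% of every α2δ bar, Cacnb4 shrinks from 35.1 to 48.2% of the β bars in control to 21.7 to 29.0% in Nav-Tsc2 mice, and Cacng2 and Cacng5 trade places among control mice.

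Among the β subunits, Cacnb4 is a β gene of the brain whose loss causes the seizures and ataxia of lethargic mice. It lies on chromosome 2 from 52428320 to 52676831. It had 109, 103, 132 and 184 CPM in control replicates 1 to 4. It had 63.6, 61.2, 64.3 and 81.1 CPM in Nav-Tsc2 replicates 1 to 4. The lowest control mouse stood above the highest Nav-Tsc2 mouse. The mean fell from 132 ± 36.5 to 67.6 ± 9.14 CPM (SD, n = 4 each), to 0.511 of control with a 95% interval of 0.385 to 0.679, or -0.97 on the log2 scale (SE 0.18, adjusted p = 0.00535).

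Between libraries Cacnb4 was more scattered than Cacna2d1. All 12 Nav-Tsc2 libraries, from 32.8 to 109 CPM, were below the control median of 129 CPM, and 8 of 12 control libraries were above every Nav-Tsc2 library. The lowest control value, 46.8 CPM, came from library A of control replicate 2. Without library A of control replicate 3 the log2 difference was -0.999 (adjusted p = 0.00404). The call held in all 16 alternatives run, with log2 differences of -1.07 to -0.77 and adjusted p of at most 0.0220. Of the merged exons of Cacnb4, 16.0% overlap A430018G15Rik, which had at most 0.424 CPM in any mouse. Reads falling in such an overlap may have been left out of both genes, and 2.18 to 2.58% of the reads of a library were set aside as ambiguous.

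Cacnb3, a partner of N-type channels in sensory neurons, had 71.8, 66.7, 96.4 and 77.3 CPM in control and 74.8, 79.6, 62.9 and 79.8 CPM in Nav-Tsc2 replicates 1 to 4. The genotypes overlapped throughout, and the log2 difference of -0.07 had an interval of -0.37 to 0.22. Beside the fall of Cacnb4, Cacnb3 made up 45.4 to 57.1% of the β sum in control and 61.1 to 64.5% in Nav-Tsc2 mice. The share of Cacnb4 was 36.1, 36.3, 35.1 and 48.2% in control and 24.5, 21.7, 28.0 and 29.0% in Nav-Tsc2 replicates 1 to 4. Neither share overlapped between the genotypes. The β sum itself was 31.8 to 42.5 CPM per kb in control and 25.7 to 31.4 in Nav-Tsc2 mice, also without overlap.

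Cacnb1, the β subunit of skeletal muscle channels that nerve cells also express, had 11.0 to 15.3 CPM in control and 9.80 to 21.0 CPM in Nav-Tsc2 mice, with a log2 difference of 0.05 and an interval of -0.47 to 0.58. Cacnb2, the main β subunit of the heart, lies on chromosome 2 from 14603088 to 14987908. It had 7.81, 3.29, 2.91 and 3.51 CPM in control and 2.59, 1.82, 1.86 and 1.66 CPM in Nav-Tsc2 replicates 1 to 4. The mice did not overlap, yet the log2 difference of -1.14 (95% interval -2.01 to -0.28) had an adjusted p of 0.0638.

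The separation of Cacnb2 rested on single libraries. In control replicate 3, library A gave 7.87 CPM and the others 1.68 and 0.852, and in control replicate 4, library A gave 12.1 CPM and the others 0.435 and 0.310. Without library A of control replicate 3, that mouse had 1.42 CPM, below every Nav-Tsc2 mouse, and the log2 difference was -1.02 (adjusted p = 0.164). Cacnb2 passed the test with DESeq2, at -1.16 (adjusted p = 0.0141), and in edgeR without control replicate 3, at -1.31 (adjusted p = 0.0441). Without control replicate 1, the control mouse highest in Cacnb2, the edgeR log2 difference shrank to -0.71 (adjusted p = 0.177). Over its 16 alternatives the adjusted p ran from 0.0141 to 0.398. Of its merged exons 7.32% overlap other genes, and each of those genes had at most 0.508 CPM in any mouse.

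**Figure D3:**
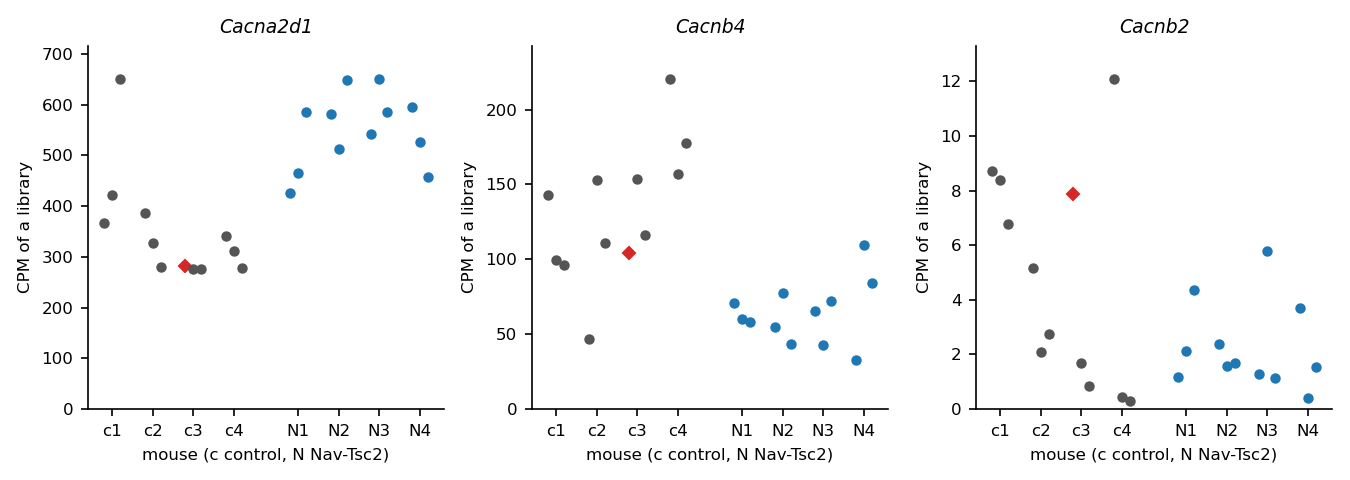
CPM of Cacna2d1, Cacnb4 and Cacnb2 in each of the 24 libraries, 3 for each of control mice c1 to c4 and Nav-Tsc2 mice N1 to N4, on linear axes that start at 0, with library A of control replicate 3 as a red diamond. For Cacna2d1, 11 of 12 control libraries lie below all Nav-Tsc2 libraries, whereas for Cacnb2 the 3 libraries of a mouse spread from 0.310 to 12.1 CPM.

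The 3 γ genes of the 10 summed to 3.97 ± 0.43 CPM per kb in control and 3.69 ± 0.49 in Nav-Tsc2 mice (SD, n = 4 each). This sum leaves out Cacng3 and Cacng4, which were called lower. With them, the 5 γ genes tested summed to 8.69 ± 1.61 CPM per kb in control and 4.27 ± 0.94 in Nav-Tsc2 mice, with ranges of 6.98 to 10.7 and 3.69 to 5.67 that did not overlap. Cacng2, or stargazin, the founding TARP, had 5.44, 12.9, 14.9 and 3.88 CPM in control replicates 1 to 4. Cacng5, a TARP of the second class, had 9.44, 7.67, 2.61 and 12.4 CPM in the same mice. The control mice highest in Cacng2 were thus lowest in Cacng5, and the other way round, while the sum of the 3 genes stayed between 3.57 and 4.47 CPM per kb. Single libraries weighed on this. Without library A of control replicate 3, that mouse had 12.9 CPM of Cacng2, level with control replicate 2, and 3.10 CPM of Cacng5. Library A of control replicate 2 had 18.9 CPM of Cacng2 and 0.124 CPM of Cacng5. With 4 control mice the pattern was not tested. Among Nav-Tsc2 mice Cacng2 ran from 8.69 to 12.3 CPM and Cacng5 from 3.77 to 7.16 CPM, inside the control range in each case. The log2 differences were 0.24 (interval -0.65 to 1.13, adjusted p = 0.725) for Cacng2 and -0.59 (interval -1.54 to 0.35, adjusted p = 0.367) for Cacng5. Without library A of control replicate 3 they were 0.32 (adjusted p = 0.605) and -0.62 (adjusted p = 0.297). Of the merged exons of Cacng2, 5.86% overlap A730060N03Rik, which reached 1.87 CPM.

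Cacng7, also of the second TARP class, lies on chromosome 7 from 3332955 to 3368221. It had 0.508, 0.303, 0.434 and 0.562 CPM in control and 0.617, 0.831, 0.784 and 0.728 CPM in Nav-Tsc2 replicates 1 to 4, from 16 to 48 counts a mouse. The Nav-Tsc2 mice were all above the control mice, but the log2 difference of 0.71 had an interval of -0.37 to 1.78 (adjusted p = 0.342). It passed the test in none of the 16 alternatives, where the adjusted p was 0.141 at the lowest. At this depth a difference of that size was not told from the spread.

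**Figure D4:**
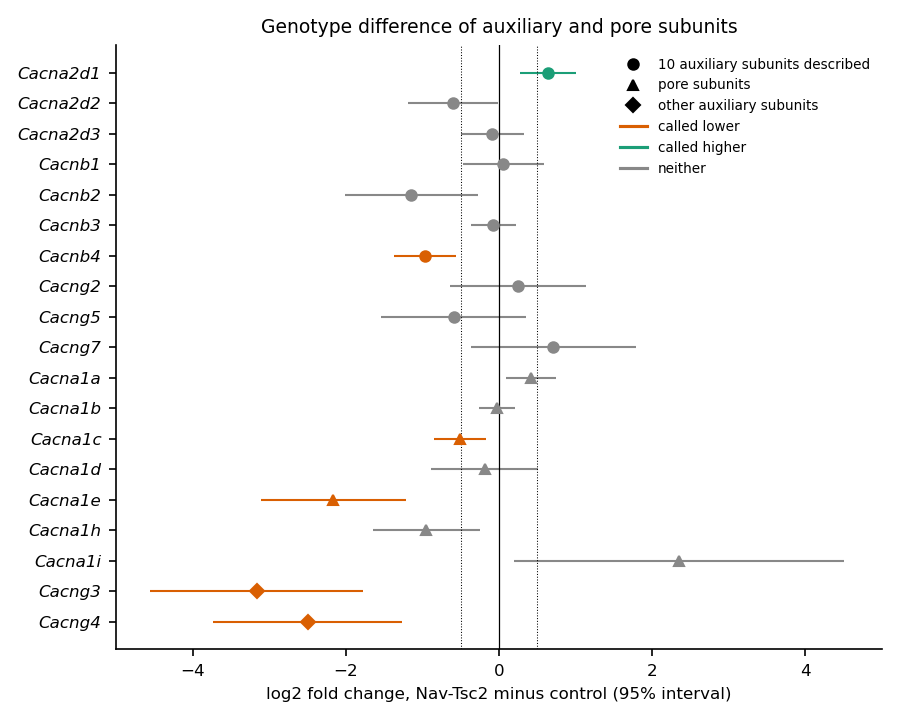
Log2 difference of Nav-Tsc2 minus control with its 95% interval for the 10 auxiliary subunits (circles), the 7 pore subunits tested (triangles) and the 2 other auxiliary subunits tested (diamonds), with dotted lines at 0.5 in each direction. Cacna2d1 at 0.64 is the only gene shown that was called higher, and Cacnb4, Cacna1c, Cacna1e, Cacng3 and Cacng4 were called lower.

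Each genotype had 2 male and 2 female mice. Within males, Cacna2d1 went from a mean of 407 to 535 CPM, 1.32-fold, and within females from 290 to 550 CPM, 1.90-fold. Cacnb4 went from 106 to 62.4 CPM in males, to 0.587 of control, and from 158 to 72.7 CPM in females, to 0.460 of control. Both genes kept their direction in each sex. The difference between the sexes in the genotype effect (female minus male) was 0.53 on the log2 scale for Cacna2d1 (interval -0.08 to 1.13) and -0.35 for Cacnb4 (interval -0.93 to 0.23). In edgeR 0 of the 10 genes had an interaction with sex at an adjusted p under 0.05, against 0.00582% of all genes tested, and 0 did with DESeq2. At an unadjusted p under 0.05, 0 of the 10 did, against 9.22% of all genes (1583 of 17178). With genotype in the model, 0 of the 10 were called between the sexes, against 0.0291% of all genes, also with DESeq2. At an unadjusted p under 0.05 there was 1 of the 10, against 6.66% of all genes (1144 of 17178), and nothing is read from it. That gene was Cacnb4, with a log2 difference of 0.40 (female minus male, adjusted p = 0.698).

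Among the pore subunits, 7 of 10 genes were tested, 2 were called lower and 5 neither, and the median log2 difference was -0.19, but -0.02 without control replicate 4. With DESeq2, 3 of them were lower and 1 higher. Cacna1e, the R-type pore, fell from 13.3 ± 4.26 to 2.97 ± 1.55 CPM (log2 difference -2.17, adjusted p = 0.00639). Cacna1c, an L-type pore, fell from 72.8 ± 12.8 to 51.2 ± 7.70 CPM (log2 difference -0.51, adjusted p = 0.0407). Cacna1b, the N-type pore and the most abundant in CPM, had 101 ± 9.81 and 99.1 ± 10.4 CPM, a log2 difference of -0.03 with an interval of -0.26 to 0.21.

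The high-voltage-activated pore genes are Cacna1a, Cacna1b, Cacna1c, Cacna1d, Cacna1e, Cacna1f and Cacna1s. This set is not that of the 7 pore genes tested: it holds the untested Cacna1f and Cacna1s and leaves out Cacna1h and Cacna1i. Set against these 7 high-voltage-activated genes, summed per kb, the α2δ sum was 2.45, 1.97, 1.87 and 1.87 times as high in control replicates 1 to 4. It was 2.61, 3.38, 3.91 and 3.16 times as high in Nav-Tsc2 replicates 1 to 4, above every control mouse. The corresponding ratio of the β sum was 1.90 to 2.88 in control and 1.77 to 2.16 in Nav-Tsc2 mice and overlapped. The pore sum itself was 14.6 to 17.8 CPM per kb in control and 12.7 to 16.3 in Nav-Tsc2 mice. These are ratios of RNA levels and not of subunits in a channel.

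Of the 7 auxiliary subunit genes outside the 10, 2 were tested and both were called lower. Cacng3 had 10.8 ± 2.89 CPM in control and 1.20 ± 1.13 CPM in Nav-Tsc2 mice (log2 difference -3.16, adjusted p = 0.00663). Cacng4 had 2.99 ± 0.92 and 0.526 ± 0.330 CPM (log2 difference -2.50, adjusted p = 0.0112). Both belong to the first TARP class, as does Cacng2, whose log2 difference was 0.24. Of the 11 genes of the AMPA receptor list, 1 was called lower and 10 neither, with a median of -0.17. That gene was Gria4, a pore subunit of the receptor, with 36.6 ± 13.9 and 16.8 ± 2.48 CPM (log2 difference -1.12, adjusted p = 0.0141). Gria1, the highest of the list in the mean over all mice, had 29.3 ± 13.6 and 36.4 ± 6.39 CPM and overlapped.

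Among 11 ligands and partners of α2δ subunits, 10 were tested, 2 were called lower, 1 was called higher and the median was 0.20, but -0.22 without Nav-Tsc2 replicate 2 and -0.00535 without Nav-Tsc2 replicate 4. Nrxn3, a presynaptic adhesion gene, fell from 182 ± 27.1 to 68.7 ± 19.8 CPM, by 1.40 on the log2 scale (adjusted p = 0.00120). Prnp, whose product, the prion protein, binds α2δ, rose from 208 ± 48.9 to 401 ± 21.6 CPM (log2 difference 0.94, adjusted p = 0.00238). Of 18 genes of the presynaptic release site that hold or use these channels, 17 were tested, 4 were called lower and 13 neither, and the median was -0.25. Snap25, a fusion protein, went from 4402 ± 645 to 2051 ± 205 CPM (adjusted p = 0.000332), and Syt2, a calcium sensor of release, from 46.5 ± 13.4 to 5.99 ± 0.926 CPM (adjusted p = 6.09e-05). Stx1a and Vamp1, also of the fusion machinery, fell by 0.68 and by 0.63 on the log2 scale. Among the GTPases and Stac adaptors that regulate the channels, 4 of 7 were tested and 1 was called higher. Their median of 0.99 fell to 0.33 with no low-count filter, 0.32 with DESeq2 and 0.44 in the fit of 24 libraries. It drew on Stac3, which passed the filter only through the Nav-Tsc2 mice, at means of 0.144 CPM in control and 0.453 CPM in Nav-Tsc2 mice. Nothing is therefore read from this median. The gene called was Stac2, an adaptor that slows inactivation of L-type channels, from 11.4 ± 5.97 to 45.5 ± 15.2 CPM (log2 difference 1.99, adjusted p = 0.00561). Stac, the most abundant, had 50.1 ± 14.6 and 63.1 ± 15.7 CPM and overlapped.

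Genes known to rise in injured sensory neurons moved beside Cacna2d1, although these ganglia lay on the side without the crush. Of 12 such genes, 10 were called higher and 2 neither, and the median log2 difference was 2.59. Atf3, the injury transcription factor, rose from 76.0 to 434 CPM. Sox11 rose from 155 to 855 CPM, Gal from 392 to 1272 CPM and Sprr1a from 4.29 to 223 CPM. The list summed to 1520 to 2779 CPM in control and 7060 to 8594 CPM in Nav-Tsc2 mice. The others called were Ecel1, Csf1, Gadd45a, Nts, Flrt3 and Npy. Npy, at means of 0.310 CPM in control and 9.20 CPM in Nav-Tsc2 mice, passed the low-count filter only through the Nav-Tsc2 mice. It is among the 10 above and enters the median, but nothing is read from its call. Gap43, the highest of the list in the mean over all mice, had a log2 difference of 0.56 (adjusted p = 0.0952) and was not called. The part of these genes in the rise of Cacna2d1 was not tested.

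Markers of cell types were read beside the results. Of 10 genes of nociceptor and sensory neuron identity, 2 were called lower (Isl1 and Rbfox3) and 8 neither, and their sum was 11236 to 12975 CPM in control and 13138 to 15415 CPM in Nav-Tsc2 mice. Of 8 peptidergic genes, 3 were lower, among them Calca, and 1, Gfra3, was higher, with sums of 9834 to 20088 and 4768 to 7624 CPM. Of 8 nonpeptidergic genes 0 were called by edgeR, 1 had an unadjusted p under 0.05 and 0 were called by DESeq2, with sums of 478 to 1924 and 1716 to 1959 CPM. Of 6 tested genes of low-threshold C-fibers, Th was higher and Piezo2 lower, with sums of 251 to 648 and 409 to 1683 CPM. Of 8 genes of large myelinated neurons, 2 were lower (Cntnap2 and Ldhb), with sums of 1893 to 2581 and 1354 to 1863 CPM. Neuron markers were thus present in all mice, and the sums of 3 lists did not overlap between the genotypes. Those of the identity list were higher in Nav-Tsc2 mice, and those of the peptidergic and large myelinated lists lower. A sum is weighted to its most abundant genes. In the identity list this was Tubb3, at means of 5908 CPM in control and 7774 CPM in Nav-Tsc2 mice, whereas the median log2 difference of that list was -0.18. In the peptidergic list it was Calca, at 10162 and 2557 CPM, and the median there was -0.52.

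Markers of cells other than neurons were read as well. Of 12 tested glial genes, 1, S100b, was lower, and the sums were 2983 to 3111 and 1965 to 2546 CPM, with no overlap. Of 7 endothelial genes, 3 passed the low-count filter (Flt1, Kdr and Ly6c1). Kdr was called higher, from 0.358 ± 0.337 to 1.76 ± 0.769 CPM (log2 difference 2.29, adjusted p = 0.0469), at low levels and with overlap. Flt1 and Ly6c1, at means of 0.034 and 0.018 CPM in control mice, passed only through the Nav-Tsc2 mice, so their calls are not counted. The endothelial list summed to 0.326 to 1.85 CPM in control and 7.73 to 20.1 CPM in Nav-Tsc2 mice. The same holds for Cx3cr1 among 5 tested macrophage genes, at means of 0.033 and 5.71 CPM, and that list summed to 1.77 to 6.95 and 7.76 to 19.4 CPM. Of 6 fibroblast genes 0 were called by edgeR, 0 had an unadjusted p under 0.05 and 0 were called by DESeq2, with sums of 73.1 to 236 and 121 to 196 CPM. No gene of these marker lists was at 0 in all mice. The part of these shifts in the differences of Cacna2d1 and Cacnb4 was not tested.

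**Figure D5:**
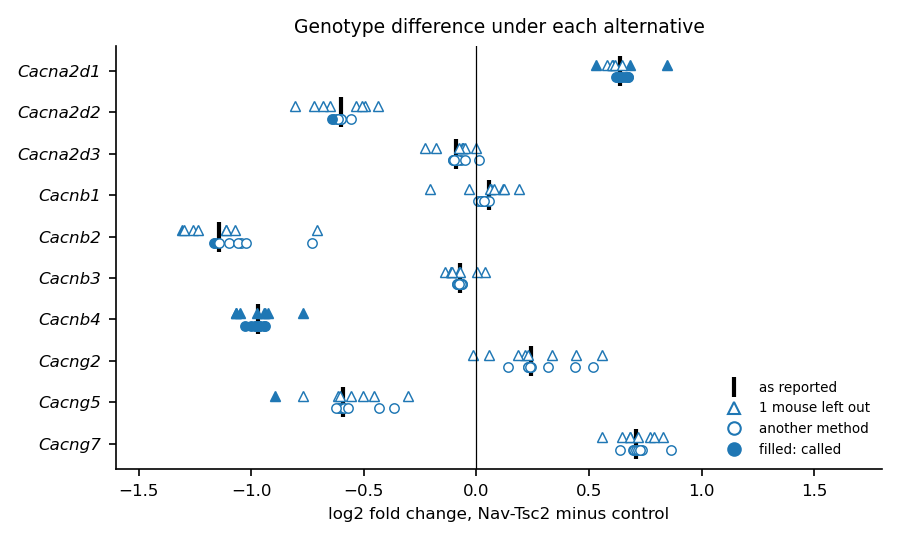
Log2 difference of Nav-Tsc2 minus control for each of the 10 genes as reported (black bar), with 1 mouse left out (triangles, 8 fits) and with another method or without library A of control replicate 3 (circles, 8 fits), filled where the gene was called. Cacnb4 is filled throughout, Cacna2d1 is open in 5 of its fits that leave out 1 mouse, and Cacnb1, Cacnb3, Cacna2d3 and Cacng2 lie on both sides of 0.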

How the data were processed

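Libraries of 100 sorted cells were made from amplified cDNA (SMARTer Ultra Low kit, without molecular identifiers) and sequenced as single reads. With STAR the authors aligned these reads to mm10, and with HTSeq they made the counts per gene and deposited these whole-number counts without normalization. Versions are not given in the sources used here. Errors derived from counts would cover counting error only, so SDs over mice are given. The authors' deposited table of their own DESeq2 comparison, with normalized counts, fold changes and p-values, was not used.

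Counts of the 3 libraries of a mouse, which are technical replicates, were summed, and the mouse was the replicate. Genes were filtered with filterByExpr, scaled by TMM and tested with edgeR 4.0.16 in R 4.3.3 on genotype alone, with Benjamini-Hochberg adjustment over 17178 genes. SEs are the log2 difference divided by the square root of F. Sex and its interaction with genotype were fitted in further models. DESeq2 1.42.0, limma 3.58.1 (voom on 24 libraries) and the other settings are alternatives. The fits were tested on simulated data. Symbols, exon lengths and overlaps came from the annotation of GRCm38 (GENCODE vM21), with 47224 of 47643 identifiers matched, and promoters from RefSeq (GRCm38.p6), matched for all 10 genes.

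The members, lists, tests and alternatives were chosen with earlier results of these data known. Named were Tsc2, Scn10a, the 10 genes, in each pathway list the called genes and the one highest in mean CPM over all mice, and in each marker list the called genes or, where there were more than 3, the 3 most abundant of them. A few genes named by the rule are left out of the text. Lists are described by counts and medians, with no set test.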

Additional observations from a re-analysis of the deposited data

Results flagged for a closer look

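In 20 groups of 4 mice, 10 genes in each genotype, Dixon's test at the 95% level found 2 groups with a mouse far from the others, where chance gives about 1 in 20. For Cacnb2, control replicate 1 had the highest value, 7.81 CPM, while the other control mice had 2.91 to 3.51 CPM. All 3 libraries of that mouse were high, at 6.76 to 8.71 CPM. For Cacnb4, Nav-Tsc2 replicate 4 had the highest value, 81.1 CPM, above the 61.2 to 64.3 CPM of the other Nav-Tsc2 mice, and its libraries ran from 32.8 to 109 CPM.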

How the results depend on the processing

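The count of genes called lower, 1 of 10, was 2 with DESeq2 (Cacnb4 and Cacnb2) and 2 in limma-voom on 24 libraries (Cacnb4 and Cacna2d2), and with 1 mouse left out it ran from 1 to 3, the latter without control replicate 3, where Cacnb2 and Cacng5 (log2 difference -0.89, adjusted p = 0.0482, range over its alternatives 0.0482 to 0.700) joined. The count called higher, 1 of 10, ran from 0 to 1 with 1 mouse left out. Signs turned for genes near 0. With 1 mouse left out, Cacnb1 ran from -0.21 to 0.19 (-0.03 without control replicate 4 and -0.21 without Nav-Tsc2 replicate 2), Cacnb3 from -0.14 to 0.04 (0.0371 without control replicate 3 and 0.00061 without Nav-Tsc2 replicate 3) and Cacng2 from -0.01 to 0.56 (-0.0141 without control replicate 4). In the fit of 24 libraries Cacna2d3 was at 0.0111. The cause was not tested. Over 7 pathway lists and their alternatives, 17 medians moved and 95 did not. DESeq2 size factors, no low-count filter, sex as a covariate, libraries weighted equally, no fold limit and, chosen after seeing the data, leaving out library A of control replicate 3 left both counts at 1. A replicate block, with replicate number as a block, also left both counts at 1, with Cacna2d1 at 0.67 (adjusted p = 0.0442). Over all genes the block called 1116 lower and 1329 higher, against 1374 and 1567 without it. Deviations of equally numbered mice correlated at 0.0341 to 0.124 across 8445 genes, not all above 0.1. Mice of the same sex but another number correlated at -0.0051 to 0.124, and mice of the other sex at -0.186 to -0.0195. The numbers were therefore not taken to pair the mice. Since numbers 1 and 2 were male and 3 and 4 female, sex and a batch tied to these numbers cannot be told apart. With 24 libraries 1253 genes were lower and 2207 higher. Depth limits Cacng7 most, at 16 to 48 counts a mouse.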

Other observations

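Of the 10 genes, 8 had a smaller coefficient of variation (SD over mean) among Nav-Tsc2 than among control mice, against 69.3% of 17146 genes. For Cacna2d1 it was 27.3% in control and 7.04% in Nav-Tsc2 mice, for Cacng2 58.7% and 14.4%, and for Cacnb2 52.5% and 20.9%. Cacnb1 (13.3% and 34.3%) and Cacna2d2 (22.2% and 33.9%) went the other way. With 4 mice a group these values were not tested.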
